A study of Mus musculus with 66 samples.

Results

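The comparison described here is that of the RNA of mouse small intestinal organoids grown in CV medium with that of the same organoids grown in ENR medium. Its members are the 8 RNA libraries that the sample labels give to these cultures, 4 of CV and 4 of ENR, of 66 libraries in the series. The remaining libraries hold RNA of another culture, EN, and of an Hnf4g knockout with its wild type, open DNA, 3 histone marks and the binding of Hnf4g. EN medium is ENR without R-Spondin-1, and its 4 RNA libraries entered the fit of counts but are not compared here. Intestinal organoids are closed epithelial buds grown from crypts in a gel of basement membrane extract, without mesenchyme, vessels or nerves. Per the study's methods, the organoids were Lgr5 GFPDTR/+, with a GFP and diphtheria toxin receptor reporter on 1 allele of Lgr5, the receptor of crypt base stem cells, a genotype shared by both cultures. ENR medium contained EGF at 50 ng/ml, 10% Noggin and 5% R-Spondin-1 as conditioned media. CV medium was ENR with 3 µM CHIR99021, an inhibitor of the kinase Gsk3, and 1 mM valproic acid, an inhibitor of histone deacetylases. The labels call CV organoids stem cell enriched and ENR organoids normal, and both agents are always present together in CV, so their effects cannot be told apart. Nothing in the labels says that the 4 libraries of a culture came from separate animals or cultures, so p-values measure the spread between these libraries, which may be technical.

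In the small intestine, stem cells at the crypt base divide under Wnt signals and give rise to absorptive enterocytes and to the secretory Paneth, goblet, enteroendocrine and tuft cells. R-Spondin-1 strengthens Wnt signalling at the receptor, whereas inhibition of Gsk3 stabilises beta-catenin inside the cell and so turns on Wnt target genes. Valproic acid raises histone acetylation, and in many cell types it switches on genes that were silent before.

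The table gives, for 9481 transcripts of 8978 gene symbols whose proteins the study had also quantified, an expected count and a level in TPM, which is scaled for transcript length and library size and allows levels of different genes to be compared. The libraries held 6636675 to 7354602 counts in CV and 5685958 to 7408738 in ENR. A transcript was called when edgeR's quasi-likelihood test gave an adjusted p under 0.01. Fold changes come from this fit and are differences in scaled counts, so they need not equal the ratio of TPM values. The median transcript differed by -0.0082 in the fit and by 0.13 on the log2(TPM + 1) scale, CV minus ENR. The 8 libraries fell into their cultures on the first principal component, which held 84.3% of the variance, while the second held 3.30%. The median standard deviation of a transcript between libraries was 0.085 in CV and 0.079 in ENR, in log2(CPM + 1), with CPM being counts scaled to the library size. These values and the principal components cover only tested transcripts with a mean count of at least 50, so the spread of scarcer transcripts is not included.

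Of 9288 transcripts tested, 5569 or 60.0% were called. Of these, 2804 were higher in CV, 30.2% of all tested, and 2765 were lower, 29.8%. At least 2-fold differences were found for 626 transcripts higher in CV, 6.74%, and 573 lower, 6.17%. All CV libraries lay above all ENR libraries in scaled counts for 33.0% of tested transcripts and below them for 32.6%. Rises and falls were about equally common in this fit, although on TPM with a pseudocount of 1 the called transcripts split into 3713 higher and 1895 lower, on library sizes set by spike-ins into 1039 and 1597, and on mRNA copies into 1409 and 461. The scatter of fold change against level shows that both tails reached abundant transcripts.

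**Figure D1:**
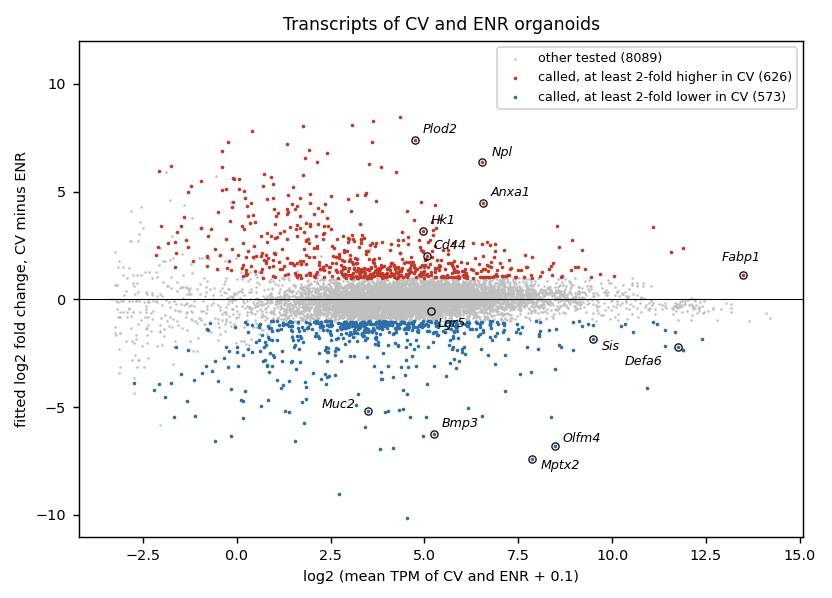
Fitted log2 fold change, CV minus ENR, of each tested transcript against the log2 of its mean TPM plus 0.1. Red points are the 626 transcripts called and at least 2-fold higher in CV, blue points the 573 lower, grey points all others, and circled points are named, with Olfm4 and Mptx2 among the lowest and Plod2 and Npl among the highest. Fitted values of transcripts with 3 or fewer counts in 1 culture depend on the prior count of the fit.

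The markers Cd44, Bmp3 and Defa6 stood far apart between the cultures. Cd44, a hyaluronan receptor and Wnt target of crypt cells, was at 55.6, 58.4, 53.4 and 50.5 TPM in the 4 CV libraries and at 11, 11.6, 13.5 and 12.1 TPM in the 4 ENR libraries. It rose 4.06-fold (log2 2.02 ± 0.08, SE, adjusted p = 1.1e-11). Every CV library lay above every ENR library, as was so for 33.0% of all tested transcripts. Bmp3, a secreted ligand made by enteroendocrine cells in the gut, was at 1.55, 0.975, 0.962 and 1.02 TPM in CV and at 75.2, 73.8, 71.5 and 81.2 TPM in ENR. It fell 75.2-fold (adjusted p = 1.1e-15), and within CV the library of replicate 1 was the highest. Defa6, an antimicrobial defensin of Paneth cell granules, was at 1389.6, 1366, 1351 and 1199.99 TPM in CV and at 6013, 5614, 5604 and 5291 TPM in ENR. The Defa6 groups did not overlap, as was so in this direction for 32.6% of all tested transcripts, and the fall was 4.66-fold (adjusted p = 3.2e-09). Defensin genes are near-identical copies of each other, so the assignment of reads to Defa6 alone is uncertain.

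The largest rises were of transcripts that were nearly undetected in ENR. Hspb1, a small heat shock protein that binds misfolded proteins and actin, was at 44.2, 33.9, 41.3 and 41.9 TPM in CV, and 1 count was found over the 4 ENR libraries, at 0, 0, 0 and 0.245 TPM. The ratio of summed counts was 531 (95% counting interval 94.9 to 21011). For Nup62cl, related to a nuclear pore protein, CV libraries held 22.4, 23.3, 26.2 and 26.8 TPM and ENR libraries 0, 0.131, 0.122 and 0 TPM, a ratio of 393 (109 to 3252) over 2 ENR counts. Both transcripts were thus nearly undetected in ENR and present at like levels in all CV libraries. Tdrp, a protein named for testis development, and Crip2, a LIM domain protein, had 2 and 3 counts over the ENR libraries and ratios of 343 (94.6 to 2836) and 186 (63.4 to 906). Plod2, a lysyl hydroxylase of collagens, was at 53.6, 55.2, 56.7 and 48.2 TPM in CV and 0.357, 0.13, 0.182 and 0.402 TPM in ENR, 167-fold higher (adjusted p = 2.2e-14). Npl, an enzyme that breaks down sialic acid, was the most abundant of these transcripts at 183, 196, 187 and 174 TPM in CV against 2.06, 2.28, 1.06 and 2.34 TPM in ENR, and it rose 84.1-fold (adjusted p = 2.4e-15). Of these, Npl alone was above 1 TPM in every ENR library.

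The other large rises included parts of the cytoskeleton and signalling proteins. Myh10, a nonmuscle myosin heavy chain, rose 150.3-fold from 0.0246 ± 0.0194 to 4.88 ± 0.242 TPM (mean ± SD, n = 4), and Tubb6, a beta tubulin, rose 77.5-fold to 22.4 ± 2.45 TPM. Fyn, a Src family kinase, rose 111-fold to 10.3 ± 0.538 TPM, and Tesc, a calcium-binding protein, rose 70.7-fold to 28.4 ± 0.973 TPM. H2-Ab1, the beta chain of an MHC class II molecule, rose 59.6-fold to 37.5 ± 2.42 TPM. These 5 transcripts had ENR means of 0.514 TPM or less. Mboat2, a lysophospholipid acyltransferase, Dpysl3, a protein of axon growth, Armcx3, a protein of the mitochondrial outer membrane, and Pdk4, a kinase that shuts off pyruvate dehydrogenase, rose between 28.6-fold and 31.1-fold.

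Among the 15 largest falls were secreted products of several cell types. Mptx1 and Mptx2 encode mucosal pentraxins of Paneth cells. Mptx1 had no count in any CV library and stood at 55.5, 42.1, 41.7 and 46 TPM in ENR, which is at least 209.7-fold lower in CV, taken against a floor of 3 counts over the 4 CV libraries. Mptx2 was at 4.93, 3.29, 1.63 and 2.28 TPM in CV and 472, 508, 448 and 420.2 TPM in ENR, 167-fold lower (adjusted p = 1.3e-14). Olfm4, a secreted glycoprotein used as a marker of crypt base stem cells, was at 4.58, 5.71, 4.56 and 13.3 TPM in CV and 654, 714, 734 and 728 TPM in ENR. Its fall was 110.2-fold (adjusted p = 1.3e-13), and among the CV libraries that of replicate 4 was the highest. Gcg, the precursor of glucagon and glucagon-like peptides, was at 0.227, 0.676, 0.67 and 1.66 TPM in CV and 61.3, 61.9, 56 and 68 TPM in ENR, 80.5-fold lower. Transcripts whose libraries overlapped could not be among these falls by the way they were chosen.

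Further falls of more than 30-fold were found in Cd177 (124-fold), a surface glycoprotein best known from neutrophils, Ctrb1 (119-fold), a chymotrypsinogen, Afp (60-fold), alpha-fetoprotein, Ccl6 (44.3-fold), a chemokine, and Slc6a20a (44.3-fold), a carrier of proline. Gm4070 and Gm1966, both interferon-inducible GTPases, fell from 646 ± 20.7 to 16.2 ± 5.38 TPM and from 179 ± 8.23 to 4.62 ± 1.41 TPM (mean ± SD, n = 4). They are similar genes between which reads may be split.

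**Figure D2:**
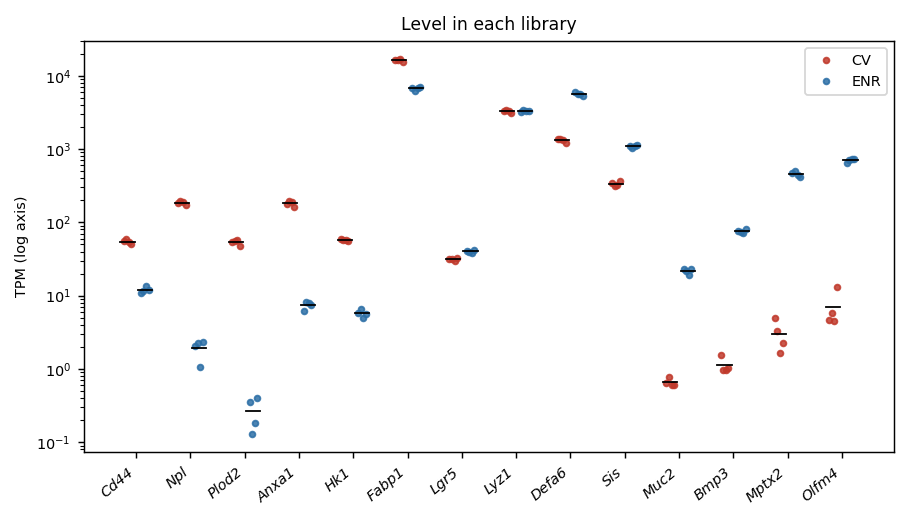
TPM in each of the 4 CV (red) and 4 ENR (blue) libraries for 14 genes, on a log axis, with black bars at the means. Cd44, Npl, Plod2, Anxa1, Hk1 and Fabp1 were higher in all CV libraries, the groups of Lyz1 overlapped, and Lgr5 and the genes to the right of Lyz1 were lower in all CV libraries.

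For 4 of the largest changes, the DNA around the start site is shown. These sites are shown because they differed in their number of CG dinucleotides, so they are examples and do not stand for the genes that rose or fell. Polycomb complexes are known to bind CG-rich start sites, and a link between CG number and these changes was not tested. The windows run from 250 bases before to 50 bases after the start, come from RefSeq (GRCm38.p6), and have every CG in capitals. Hspb1 (chr5:135887669-135887968, plus strand) and Tesc (chr5:118027493-118027792, plus strand) rose, with 14 and 36 CG. Olfm4 (chr14:80000052-80000351, plus strand) and Mptx2 (chr1:173277707-173278006, minus strand) fell, with 5 and 2 CG.
Hspb1: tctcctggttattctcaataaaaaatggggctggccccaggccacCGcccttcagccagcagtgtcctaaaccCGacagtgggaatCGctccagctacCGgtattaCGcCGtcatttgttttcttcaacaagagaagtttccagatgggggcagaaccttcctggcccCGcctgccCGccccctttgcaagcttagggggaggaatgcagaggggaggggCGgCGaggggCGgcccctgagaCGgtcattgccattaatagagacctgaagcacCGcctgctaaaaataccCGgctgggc
Tesc: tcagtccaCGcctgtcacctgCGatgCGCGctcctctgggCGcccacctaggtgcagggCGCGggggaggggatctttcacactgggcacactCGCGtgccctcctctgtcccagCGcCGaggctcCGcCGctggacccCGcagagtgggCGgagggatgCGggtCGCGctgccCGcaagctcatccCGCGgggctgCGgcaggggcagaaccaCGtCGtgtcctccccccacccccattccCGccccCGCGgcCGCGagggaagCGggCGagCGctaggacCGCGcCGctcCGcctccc
Olfm4: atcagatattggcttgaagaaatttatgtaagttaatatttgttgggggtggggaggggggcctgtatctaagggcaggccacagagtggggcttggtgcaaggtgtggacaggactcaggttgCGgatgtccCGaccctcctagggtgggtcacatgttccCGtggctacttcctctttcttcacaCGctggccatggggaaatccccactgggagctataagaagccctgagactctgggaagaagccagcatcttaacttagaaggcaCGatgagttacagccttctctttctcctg
Mptx2: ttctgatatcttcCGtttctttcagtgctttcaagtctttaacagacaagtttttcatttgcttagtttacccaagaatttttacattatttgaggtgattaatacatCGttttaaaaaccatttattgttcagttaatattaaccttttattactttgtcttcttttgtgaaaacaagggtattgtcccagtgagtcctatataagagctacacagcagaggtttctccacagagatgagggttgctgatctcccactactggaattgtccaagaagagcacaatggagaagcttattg

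The same count was made for all genes in windows of 300 bases at the most upstream start site of the mm9 annotation. It covered 97.9% of the symbols with a transcript at least 2-fold higher in CV and 97.2% of those lower. The median window held 18 CG for genes higher in CV, 9 for genes lower in CV and 21 for the other tested genes, against 11 over all 22233 windows of protein-coding genes. The letters GGGCGG, searched on both strands, were in 67.5% of windows of genes higher in CV, 44.0% of those lower and 43.5% of all windows. The letters TATAAA, also on both strands, were in 8.54%, 12.9% and 13.4%, respectively. The letters CTTTGAT and CTTTGAA, which the Tcf and Lef factors of the Wnt pathway are known to bind, were in 3.12% and 3.45% of windows of genes higher in CV, in 6.00% and 5.64% of those lower and in 3.48% and 4.75% of all windows. Genes that fell thus had fewer CG and fewer GGGCGG than the other tested genes, of which 63.3% held GGGCGG. Of the other tested genes, 2.45% held CTTTGAT and 3.52% held CTTTGAA, so that genes that rose held CTTTGAT slightly more often than these and less often than all genes.

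Readouts of chromatin from the same cultures, which played no part in choosing the transcripts, were read at the start sites. Peaks of all libraries were merged in mm9, and each region has a normalised score: ATAC-seq for open DNA, with 4 libraries per culture, H3K27ac and H3K4me3, marks of active promoters, and H3K27me3, the mark that Polycomb complexes place on silent genes, with 3 libraries each. Regions within 500 bp of a start site were found for 584 of 622 genes with a transcript at least 2-fold higher in CV and for 476 of 566 lower. Their scores were summed per library and given as a percent of the score over all 10438 regions at start sites of tested genes.

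The largest difference in percentage points was in H3K27me3, which also varied most between libraries. Genes higher in CV held 9.32, 10 and 9.76% of the start-site H3K27me3 score in the 3 CV libraries and 14.6, 17 and 16.3% in the 3 ENR libraries, a fall to 0.607 of the ENR mean. The libraries of the cultures were well apart. This is a summed share. Gene by gene, all CV H3K27me3 scores lay below all ENR scores at 95 of the 584 genes, 16.3%, and above them at 41, 7.02%. Over all tested genes with a region these shares were 3.19% and 10.9%. At genes higher in CV the share of ATAC rose from 5.04 ± 0.121% to 6.0 ± 0.0344%, of H3K27ac from 3.23 ± 0.0826% to 4.91 ± 0.0616% and of H3K4me3 from 4.56 ± 0.11% to 5.6 ± 0.171% (mean ± SD, ENR to CV). At genes lower in CV the changes were smaller and of the other sign, from 4.63 ± 0.051% to 4.2 ± 0.0303% for ATAC, from 5.18 ± 0.0927% to 4.53 ± 0.0743% for H3K27ac, from 4.63 ± 0.0976% to 4.04 ± 0.061% for H3K4me3 and from 7.17 ± 0.12% to 7.73 ± 0.14% for H3K27me3. In none of these 8 comparisons did the libraries of CV and ENR overlap. The exact permutation test, two-sided, gave p = 0.0286 for ATAC, the smallest that 4 against 4 libraries allow, and p = 0.1 for each mark, the smallest for 3 against 3, and 0.1 for all 8 after adjustment, so the design cannot reach 0.05 for the marks. Taken as a percent of all regions rather than of start sites, the H3K27me3 difference at genes lower in CV was -0.0060 percentage points instead of 0.56. Genes higher in CV started from a low level, with a median of 5.02 TPM in ENR against 21.4 TPM over all tested transcripts, and the part of this level in the H3K27me3 scores was not tested.

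**Figure D3:**
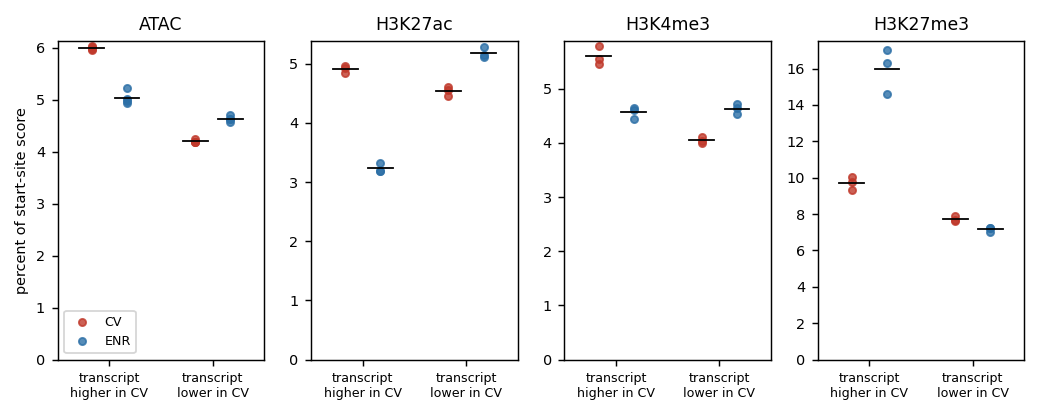
Percent of the summed region score at start sites that lay at genes with a transcript called and at least 2-fold higher or lower in CV, for each library (points) with means (bars), CV in red and ENR in blue. H3K27me3 at genes higher in CV fell from 14.6 to 17% in ENR to 9.32 to 10.0% in CV.

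Among the 15 largest rises, 14 had a region at the start site. All CV scores lay above all ENR scores at 11 of them for ATAC, at 12 for H3K27ac and at 13 for H3K4me3, where 6.35%, 5.46% and 7.98% of all tested genes with a region did so. For H3K27me3 all CV scores lay below all ENR scores at 10 of the 14, against 3.19% of all tested genes. At Hspb1, H3K27me3 scores were 26, 30 and 26 in CV and 102, 163 and 114 in ENR, and ATAC scores 20, 17, 25 and 29 in CV and 4, 3, 3 and 5 in ENR. At Plod2, ATAC scores rose from 14, 10, 18 and 10 in ENR to 152, 118, 90 and 106 in CV. At Pdk4, by contrast, H3K27me3 was low in both cultures, at 22, 24 and 7 in ENR and 12, 7 and 14 in CV, and these ranges overlapped. Of the 15 largest falls only 6 had a region at the start site. At Olfm4, ATAC scores were 14, 19, 16 and 14 in CV and 33, 28, 40 and 36 in ENR, and at Bmp3, H3K27ac scores were 25, 11 and 59 in CV and 129, 133 and 94 in ENR. Neither range overlapped, as was so for 15.1% of all tested genes with a region for lower ATAC and 30.5% for lower H3K27ac. H3K27ac at Olfm4, with 16, 10 and 24 in CV and 21, 11 and 17 in ENR, and ATAC at Bmp3, with 25, 20, 19 and 37 in CV and 35, 44, 44 and 51 in ENR, did overlap. Over the 6 falls, all CV scores lay below all ENR scores at 3 for ATAC, at 2 for H3K27ac and at 3 for H3K4me3, the last against 14.7% of all tested genes. H3K27me3 was divided, with all CV scores above all ENR scores at 3 of the 6 and below them at 2. Over all tested genes with a region these shares were 10.9% and 3.19%.

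**Figure D4:**
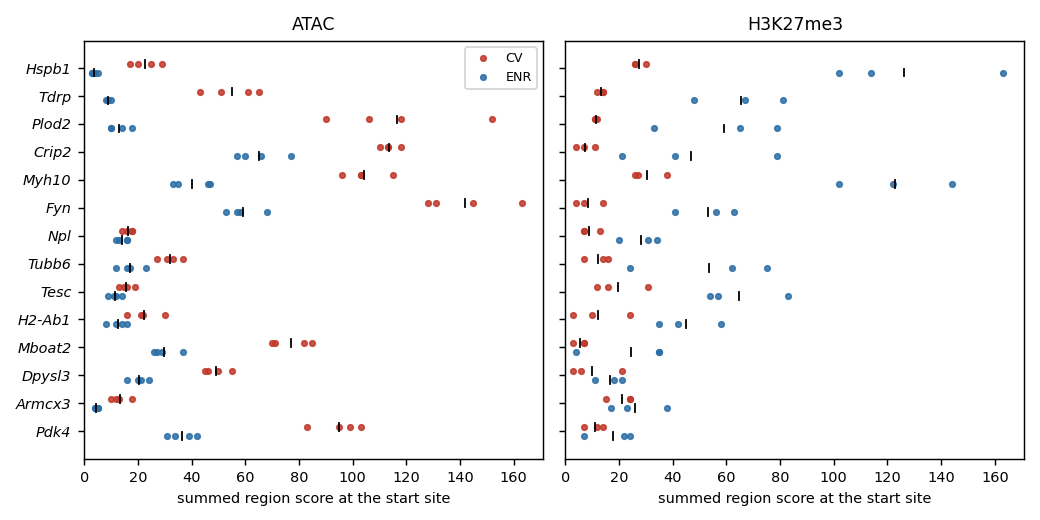
Summed scores of ATAC-seq (left) and H3K27me3 (right) regions within 500 bp of a start site for the 14 of the 15 largest rises that had a region, with a point per library, bars at the means, CV in red and ENR in blue. ATAC was higher in all CV libraries at 11 genes, and H3K27me3 was lower in all CV libraries at 10 genes.

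Wnt target genes did not move together. Of 14 tested members, 8 rose and 5 fell, with a median log2 change of 0.29 against -0.0082 over all transcripts. Over all transcripts tested 30.2% rose and 29.8% fell, and the counts of this and of the later lists stand beside these shares. Lef1, a transcription factor that acts with beta-catenin, was at 2.3, 1.87, 1.46 and 1.81 TPM in CV with 1 count over the ENR libraries, a ratio of 71.2 (12.4 to 2849.8). Tnfrsf19, a receptor known as Troy, rose 29-fold to 4.8 ± 0.581 TPM, and Ccnd2, cyclin D2, rose 2.46-fold from 54.8 ± 3.11 to 151 ± 4.16 TPM. The classical targets Lgr5 and Axin2 did not follow. Lgr5 was at 31.5, 31.2, 29.3 and 33 TPM in CV and 40.2, 39.6, 38.7 and 42.3 TPM in ENR and fell 1.43-fold (adjusted p = 3.0e-06). Axin2, a feedback inhibitor of the pathway, differed by -0.22 ± 0.06 (log2, SE, adjusted p = 0.004), a difference that was 0.01 and thus of the other sign on mRNA copies, and that did not pass without CV replicate 1 (-0.21), CV replicate 3 (-0.19), ENR replicate 1 (-0.19) or ENR replicate 3 (-0.22), nor on TPM or with library sizes set by spike-ins.

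The crypt stem cell list was equally divided, with 9 of 23 members higher and 9 lower and a median of 0.0042. At least 2-fold, 4 members rose and 2 fell. Cd44 and Tnfrsf19 rose, and Olfm4 and Lgr5 fell. Smoc2, a secreted matrix protein, fell 1.15-fold (adjusted p = 1.8e-04), a call that was lost on TPM and with spike-in library sizes. Ascl2, the transcription factor of crypt base stem cells, was at 2.36, 2.33, 2.13 and 3.17 TPM in CV and 3.43, 3.01, 3.2 and 4.73 TPM in ENR and did not pass (log2 -0.68 ± 0.21, adjusted p = 0.0102), though it did with DESeq2 (-0.71) and without CV replicate 4 (-0.81). Cdca7, a Myc target of dividing crypt cells, fell 2.26-fold to 91.3 ± 5.82 TPM. Of Lgr5, Olfm4, Smoc2, Ascl2 and Cd44, which are widely used to mark crypt base cells, Cd44 alone was called higher in the culture labelled stem cell enriched. That label has other evidence in the study. In its microscopy, cells with the Lgr5 reporter dominated CV organoids, and it reports stem cell markers enriched in CV across its cultures in protein and RNA.

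In each of the 4 secretory lists more members fell than rose, to different extents. In bulk RNA, fewer cells of a type and less RNA per cell cannot be told apart. Of 24 Paneth cell transcripts, 17 fell and 5 rose, with a median of -1.39. The list as a whole summed to 22441 to 22980 TPM in CV and 38523 to 40513 TPM in ENR. Lyz1, the lysozyme of Paneth granules, nevertheless stood at 3298, 3401, 3321 and 3099 TPM in CV and 3219.7, 3437, 3349 and 3269 TPM in ENR, a difference of -0.17 (adjusted p = 0.0087) that was lost on TPM and with spike-in library sizes, and that passed only with all 8 libraries or without CV replicate 2 and lay between -0.14 and -0.18 when any other library was left out. Mmp7, the protease that activates defensins, was 1.17-fold higher (adjusted p = 0.0045), a call lost without CV replicate 2 (0.18) or 3 (0.21) and without ENR replicate 2 (0.22), 3 (0.21) or 4 (0.22), with values in log2, and with spike-in library sizes. Habp2, a plasma serine protease, fell 5.3-fold, and Copz2, a coat protein of Golgi vesicles, had a ratio of 13 (3.27 to 112) over 2 ENR counts.

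Goblet cell transcripts fell in 16 of 26 cases and rose in 7, with a median of -1.30, or -0.63 relative to all transcripts on log2(TPM + 5). Of the 7 that rose, 1 did so at least 2-fold, though all goblet members named here fell. The list as a whole summed to 2656 to 2789 TPM in CV and 3820 to 4020 TPM in ENR. Muc2, the gel-forming mucin, was at 0.65, 0.784, 0.603 and 0.612 TPM in CV and 22.9, 21.5, 19.3 and 23.4 TPM in ENR, 36.6-fold lower (adjusted p = 2.3e-14). Clca1, a secreted protease of mucus, fell 36.1-fold and Bcas1 25.6-fold. Falls of Fcgbp, a mucus-linking protein, at 1.96-fold, and of Tff3, a trefoil peptide, at 1.52-fold, were smaller. Tff3 was at 1459 ± 53.1 TPM in CV.

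Enteroendocrine transcripts fell in 17 of 21 cases and rose in 2, with a median of -2.22, which was -1.29 on log2(TPM + 1), -0.86 on log2(TPM + 5) and -1.26 on copies relative to all transcripts. The granins Chga and Chgb, carriers of hormone granules, fell 18.5-fold and 32.4-fold. Chga was at 2.13, 2.54, 2.51 and 2.44 TPM in CV and 39, 38.5, 41.1 and 42.5 TPM in ENR. The Chga values did not overlap, as was so in this direction for 32.6% of all tested transcripts. Ghrl, the hormone ghrelin, fell 34.4-fold, and Reg4, a lectin of secretory cells, fell 11-fold from 337 ± 7.17 to 33.8 ± 9.2 TPM. Tuft cell transcripts fell in 12 of 15 cases and rose in 3, with a median of -3.08. Of the 3 that rose, 2 did so at least 2-fold, though all tuft members named here fell. The tuft list as a whole summed to 82.1 to 90.5 TPM in CV and 120 to 125 TPM in ENR. Dclk1, a kinase that marks tuft cells, fell 26.3-fold from 1.98 ± 0.151 TPM. Trpm5, the cation channel of taste signalling, fell 12.8-fold, Avil, an actin regulator, 9.28-fold, and Lrmp 27.5-fold. All 4 were below 10 TPM in ENR, and the median of the list was -1.27 relative to all transcripts on log2(TPM + 1) and -0.55 on log2(TPM + 5), so that the order of the 4 lists by median depends on the scale.

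Enterocyte transcripts split by gene. Of 55 tested, 17 rose and 29 fell, with a median of -0.29. Among those that fell were Treh, trehalase, 20.7-fold, Mme, neprilysin, 8.39-fold, Slc6a19, a carrier of neutral amino acids, 8.51-fold, and Sis, sucrase-isomaltase, 3.62-fold. Sis was at 349, 311, 319 and 367 TPM in CV and 1100.3, 1039, 1098 and 1132 TPM in ENR. Fabp1, a fatty acid binding protein, was at 16666, 16466, 16731 and 15601 TPM in CV and 6872, 6224, 6743 and 7119.9 TPM in ENR and rose 2.19-fold (adjusted p = 1.9e-09). It had the highest mean TPM of all transcripts in CV. Krt20, a keratin of mature cells, rose 1.62-fold, Vil1, villin of the brush border, 1.19-fold though not with spike-in library sizes, and Cubn, the receptor cubilin, 14.3-fold from a low level. Anpep, aminopeptidase N, was called 1.24-fold lower, which was lost on TPM and with spike-in library sizes. Alpi, intestinal alkaline phosphatase, was at 104, 114, 120.2 and 119.5 TPM in CV and 107, 106, 116 and 123 TPM in ENR and did not pass (adjusted p = 0.044), its groups overlapping.

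Among transcription factors of the intestinal lineages, 3 of 32 rose and 14 fell, with a median of -0.30. Hnf4g, a nuclear receptor of enterocyte genes, was at 46.9, 45.9, 48.9 and 50.8 TPM in CV and 126, 129.95, 132 and 133 TPM in ENR, 3.02-fold lower (adjusted p = 1.8e-12). Atoh1, which commits cells to the secretory lineages, fell 2.82-fold, and Rxra, a partner of nuclear receptors, 2.31-fold. Tbx3, a T-box factor and Wnt target, rose 2.42-fold to 9.16 ± 0.524 TPM. In the Notch list, which holds Atoh1 too, 2 of 20 rose and 9 fell, with a median of -0.12, and the ligands Dll1 and Dll4 fell 1.98-fold and 1.63-fold, the latter not with spike-in library sizes.

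Transcripts of cell division were lower in CV almost throughout. Of 57 transcripts of DNA replication and nucleotide supply, 43 fell and 4 rose, with a median of -0.68. Of 58 of mitosis and the cyclins, 52 fell and 3 rose, with a median of -0.67. Tk1, thymidine kinase, was at 33.9, 30.8, 30.8 and 29.8 TPM in CV and 74.8, 81.9, 80 and 82.7 TPM in ENR, 2.84-fold lower (adjusted p = 1.1e-09). Its libraries did not overlap, as was so in this direction for 32.6% of all tested transcripts. Falls were also found for Timeless, a protein of the replication fork (3.17-fold), the replication proteins Mcm10 (2.28-fold) and Mcm4 (2.24-fold), Cdca2, a mitotic phosphatase subunit (2.38-fold), and Ncapd3 of condensin (2.3-fold). The 3 of the mitosis and cyclin list that rose were G1 cyclins. Ccnd3, cyclin D3, rose 2.73-fold from 8.02 ± 1.28 to 24.3 ± 2.27 TPM, beside Ccnd2 and Ccne1, of which the last was named after its value was seen. Cdkn1a, the inhibitor p21, was at 26.4, 24.4, 26 and 26.3 TPM in CV and 11.1, 9.48, 12 and 9.05 TPM in ENR and rose 2.22-fold (adjusted p = 1.5e-07). Of 11 linker and variant histones, 7 fell and 3 rose, with a median of -0.27. Those that fell included Hist1h1d, a linker histone, 2.19-fold lower, and Hist1h1b, another, 1.99-fold lower, the latter not on log2(TPM + 1). Hist1h4i, an H4 histone with the highest mean TPM in ENR, fell 1.83-fold from 23652 ± 1214 TPM. Histone genes share sequence, so reads may be split between copies.

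The targets of the 2 agents were measured too. Gsk3b was 1.15-fold higher in CV (adjusted p = 6.0e-04), a call lost with DESeq2 and with library sizes set by spike-ins, and Gsk3a did not pass (log2 -0.11 ± 0.07, adjusted p = 0.18, and 0.04 on log2(TPM + 1)). Of 14 histone deacetylases, 5 rose and 3 fell, with a median of -0.01, and the list summed to 514 to 521 TPM in CV and 390 to 397 TPM in ENR. The class I enzymes Hdac1 and Hdac3 rose 1.83-fold and 1.45-fold, the latter not with spike-in library sizes, with Hdac1 at 36.5, 40.2, 38.2 and 42.5 TPM in CV and 20.9, 19.5, 17.9 and 18.8 TPM in ENR. Hdac2 was 1.13-fold higher, a call lost without CV replicate 3 (log2 0.16) or ENR replicate 1 (0.16), with DESeq2 and with spike-in library sizes, and Hdac8 did not pass (log2 -0.08, adjusted p = 0.59, and 0.08 on log2(TPM + 1)). Sirt1, an NAD-dependent deacetylase, fell 2.58-fold. Of 20 acetyltransferases and readers of acetyl-lysine, 14 fell and the other 6 did not pass, with a median of -0.51. Among them, the acetyltransferase Crebbp fell 2.26-fold and Brd8, a bromodomain protein, 1.9-fold. Polycomb components and H3K27 demethylases counted 1 rise and 8 falls of 20 (median -0.16), and the demethylase Kdm6a fell 1.79-fold.

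Genes best known from neurons rose in 13 of 26 tested cases and fell in 1, with a median of 1.05. On log2(TPM + 1) this median was 0.38 above that of all transcripts. Dpysl3 and Dpysl5, proteins of axon growth, rose 30.1-fold and 22-fold. Map2, a microtubule protein of dendrites, was at 1.53, 1.6, 1.68 and 1.49 TPM in CV and 0.0865, 0.0473, 0.0733 and 0.0729 TPM in ENR, 19.5-fold higher. Cadm4, a cell adhesion molecule, rose 17.1-fold to 15.6 ± 1.02 TPM and was the most abundant of these 4.

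Genes of the matrix and of fetal-type epithelium rose far more often than they fell. Among integrins, laminins, collagens and their partners, 23 of 36 rose and 1 fell, with a median of 0.83, or 0.40 relative to all transcripts on log2(TPM + 5). Fn1, fibronectin, was at 2.56, 1.92, 2.87 and 2.36 TPM in CV with 1 count over the ENR libraries, a ratio of 335 (59.7 to 13264). The basement membrane genes Col18a1 and Nid1, nidogen, rose 55.6-fold and 26.2-fold, to 3.08 ± 0.562 and 2.08 ± 0.37 TPM. Plod2, which modifies collagens, is described above. Of 20 genes linked to fetal-type epithelium and the coactivator Yap, 13 rose and 2 fell, with a median of 0.88. Anxa1, a phospholipid-binding protein, was at 179, 198, 187 and 163 TPM in CV and 6.23, 8.22, 8.0 and 7.49 TPM in ENR, 21.9-fold higher (adjusted p = 1.2e-13). Ly6a, known as Sca-1, rose 9.25-fold to 68.7 ± 6.45 TPM, Lgals1, a galectin, 21-fold to 74.4 ± 11.3 TPM, and Il33, an alarmin, 36.8-fold to 5.35 ± 0.859 TPM. None of the libraries of these overlapped, as was so in this direction for 33.0% of all tested transcripts. Keratins and junction genes fell more often than they rose, 18 against 8 of 35 (median -0.20), while the claudins Cldn4 and Cldn2 rose 2.79-fold and 2.4-fold and Cldn15 fell 2.1-fold.

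**Figure D5:**
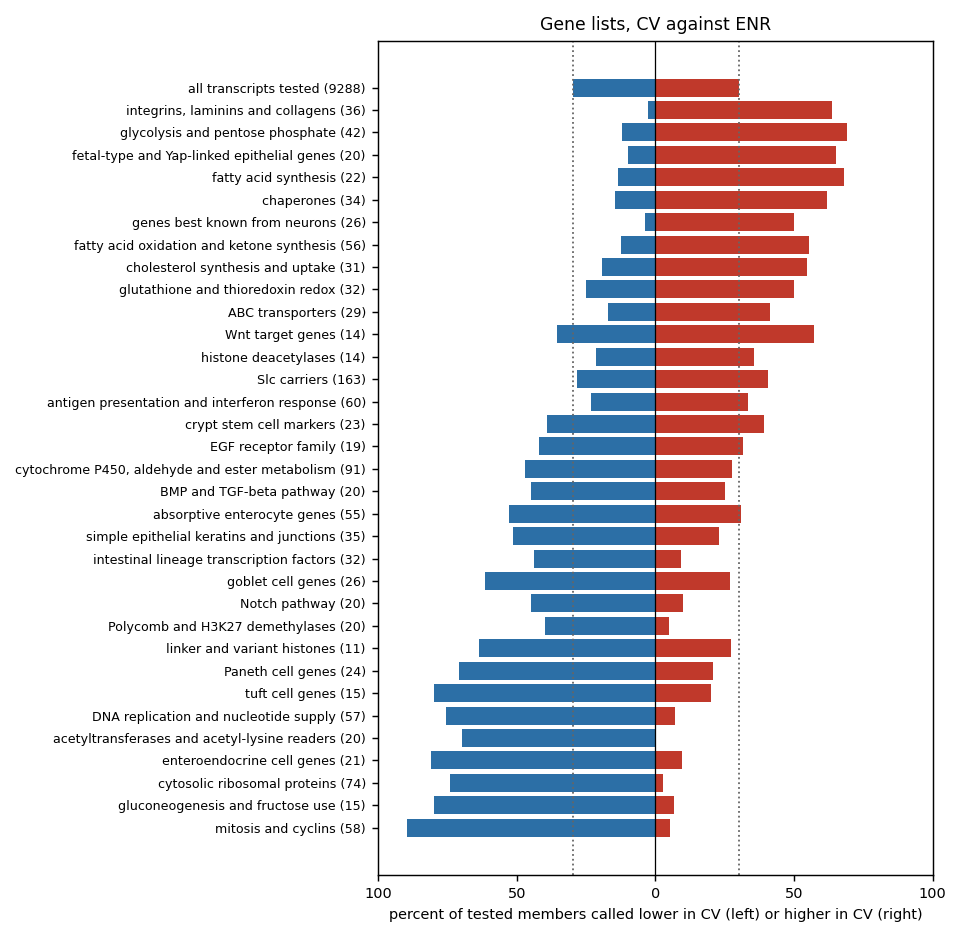
Percent of the tested members of each gene list called lower (blue, left) or higher (red, right) in CV, with the number tested in brackets. Dotted lines mark the 29.8% lower and 30.2% higher over all transcripts tested, and mitosis (52 of 58 lower) and integrins, laminins and collagens (23 of 36 higher) lie near the ends.

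Sugar metabolism changed in opposite directions on its 2 branches. In glycolysis and the pentose phosphate pathway, 29 of 42 transcripts rose and 5 fell, with a median of 0.58, and the summed level was 18686 to 19027 TPM in CV and 10675 to 11038 TPM in ENR. Hk1, hexokinase, was at 58.6, 57.9, 56.6 and 55 TPM in CV and 5.84, 6.58, 4.88 and 5.6 TPM in ENR, 8.94-fold higher (adjusted p = 1.2e-13). Slc16a3, an exporter of lactate, rose 3.86-fold to 188 ± 6.3 TPM. Ldhb, a lactate dehydrogenase, was at 6.22, 7.43, 7.72 and 6.17 TPM in CV with 1 count over ENR, a ratio of 143 (25.4 to 5700.03). In gluconeogenesis and fructose use, 12 of 15 fell and 1 rose, with a median of -0.94. The committing enzyme Pck1 fell 13.7-fold, Fbp1, fructose bisphosphatase, 7.81-fold from 90.2 ± 2.57 to 12.9 ± 2.31 TPM, Slc37a4, the glucose 6-phosphate carrier, 3.48-fold, and Tkfc, triokinase of fructose breakdown, 4.68-fold.

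Lipid genes rose more often than they fell. This held for fatty acid oxidation and ketone synthesis, with 31 higher and 7 lower of 56 (median 0.35), for fatty acid synthesis, with 15 and 3 of 22 (median 0.47), and for cholesterol synthesis and uptake, with 17 and 6 of 31 (median 0.25). Acot1, an acyl-CoA thioesterase, was at 659, 642, 677 and 662 TPM in CV and 112, 107, 114 and 106 TPM in ENR, 5.38-fold higher (adjusted p = 1.9e-15). Acot12, another thioesterase, rose 4.21-fold. Acacb, an acetyl-CoA carboxylase, and Acsl4, an acyl-CoA synthetase, rose 16-fold and 5.84-fold. In the cholesterol list, Scarb1, a lipoprotein receptor, rose 2.27-fold and Hsd17b7, a synthesis enzyme, 1.84-fold, whereas Soat2, which esterifies cholesterol, fell 2.32-fold.

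Of 34 chaperone transcripts, 21 rose and 5 fell, with a median of 0.34, and beside Hspb1 the largest well-counted rises included Hspa2 (7.25-fold) and Hspa1b (3.54-fold), both of the Hsp70 family. Glutathione and thioredoxin genes rose in 16 and fell in 8 of 32 cases (median 0.20). Hmox1, heme oxygenase, rose 6.87-fold and Gpx2, the glutathione peroxidase of gut epithelium, 2.18-fold, while Nqo1, a quinone reductase, fell 1.81-fold. Antigen presentation and interferon genes were mixed, with 20 higher and 14 lower of 60 (median 0.05). These are 33.3% and 23.3%, near the 30.2% and 29.8% of all transcripts tested. Bst2, tetherin, rose 6.75-fold beside H2-Ab1. H2-T3, a class I-like molecule of gut epithelium, fell 6.31-fold and Psmb10, a subunit of the immunoproteasome, 3.71-fold. Reads of H2 genes may be split between similar copies.

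Among signalling genes, the BMP and TGF-beta list had 5 rises and 9 falls of 20 (median -0.16). The ligand Tgfb1 rose 5.54-fold from 0.34 ± 0.224 TPM and the receptor Tgfbr2 2.58-fold from 21.5 ± 1.56 to 62 ± 2.43 TPM, while the induced matrix protein Tgfbi fell 2.43-fold. In the EGF receptor family list, 6 rose and 8 fell of 19 (31.6% and 42.1%, median -0.07), against 30.2% and 29.8% of all transcripts tested. The receptor Erbb3 was at 53.6, 49.6, 49.8 and 57.9 TPM in CV and 161, 155, 161 and 165 TPM in ENR, 3.39-fold lower, and its partner Erbb2 fell 2.24-fold. Btc, the ligand betacellulin, rose 1.82-fold.

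Carriers and detoxifying enzymes showed large changes in both directions. ABC transporters rose in 12 and fell in 5 of 29 cases (median 0.13). The P-glycoproteins Abcb1a and Abcb1b, drug efflux pumps that are similar in sequence, rose 2.68-fold and 25.7-fold, with Abcb1a at 234, 231, 229 and 237 TPM in CV and 79.5, 76.2, 78 and 77.7 TPM in ENR. Abcc4, an exporter of cyclic nucleotides and drugs, rose 3.14-fold. Of 163 Slc carriers, 66 rose and 46 fell (40.5% and 28.2%, median 0.12), against 30.2% and 29.8% of all transcripts tested. Slc5a4b, of the family of sodium-glucose carriers, fell 12.8-fold. Cytochrome P450, aldehyde and ester enzymes rose in 25 and fell in 43 of 91 cases (median -0.30), from Ces1c, a carboxylesterase, 53.5-fold lower, to Aldh4a1, an enzyme of proline breakdown, 23.7-fold higher.

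Transcripts of cytosolic ribosomal proteins fell by small amounts, 55 of 74 lower and 2 higher with a median of -0.32. Rps29 and Rpl9, proteins of the small and large subunit, fell 1.59-fold and 1.57-fold. Together the list took up 240803 to 245129 TPM in CV and 272234 to 275356 TPM in ENR. Eef1a1, the elongation factor that brings tRNA to the ribosome, fell 1.56-fold from 20528 ± 122 to 14689.5 ± 292 TPM.

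Markers of cells outside the epithelium were low in both cultures. The 9 tested of 13 mesenchymal transcripts summed, with the untested, to 4.4 to 6.6 TPM in CV and 7.1 to 8.1 TPM in ENR, and Col6a2 and Col6a3 were at 0 throughout. Vim, vimentin, fell 2.67-fold to 2.82 ± 0.302 TPM. Des, desmin, had no count in ENR and was at 1.69, 1.38, 2.08 and 0.931 TPM in CV, at least 26.2-fold higher against 3 counts over the ENR libraries, and Col1a1 rose 5.45-fold (adjusted p = 0.0072) from 0.0354 ± 0.0415 TPM, a call that was lost without CV replicate 1 (log2 2.23), 2 (2.47) or 4 (2.51) and without ENR replicate 1 (2.03) or 3 (2.10), and with DESeq2 (2.56). The 8 immune transcripts, of which 5 were tested, 4 fell and 1 rose, summed to 8.9 to 10.5 TPM in CV and 16.7 to 18.6 TPM in ENR. Ptprc, the leukocyte marker CD45, had 1 count over CV and was at 0.433, 0.323, 0.30 and 0.249 TPM in ENR, and Cd3e of T cells had no count. Coro1a, a leukocyte actin regulator, was at 1.27, 1.39, 1.1 and 1.53 TPM in CV and without a count in ENR, at least 12-fold higher. Of endothelial and red cell transcripts only 2 could be tested and neither passed. The sum of mesenchymal markers was lower in CV, while 2 of the 9 tested members were called higher and 1 lower. The part of other cells in these results, the rises of matrix genes among them, was not tested.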

How the data were processed

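Organoid RNA was depleted of ribosomal RNA, sequenced with strand information and mixed with spike-in RNA. Per the labels, the authors estimated expected counts and TPM with kallisto 0.43.0 (submitters' processing notes), and the deposited table holds transcripts whose proteins were quantified, 92 spike-ins and mRNA copy numbers calibrated by the authors. The deposited region scores are read counts in the union of peaks (mm9), normalised between libraries by the authors and rounded. For sets of genes, shares of a library's score were compared. Scores at single genes, and counts of genes whose scores did not overlap, used the scores as deposited. Such scores can be shifted as a whole, as H3K27ac was lower in all CV libraries at 30.5% of all tested genes with a region and higher at 5.46%. Binding counts of Hnf4g were not used.

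Expected counts of 9481 transcripts were rounded. The 9288 with counts in at least 4 of the 12 RNA libraries of CV, ENR and EN were fitted with edgeR 4.0.16 (R 4.3.3). The fit used TMM factors, the quasi-likelihood test over these 12 libraries and Benjamini-Hochberg adjustment. Calls were made at an adjusted p under 0.01. Spike-ins, which took 0.837 to 1.20% of counts in the CV and ENR libraries and 0.848 to 1.36% in EN, were left out of library sizes. On simulated counts 34.0%, 71.5% and 93.0% of 200 transcripts changed 1.25-, 1.5- and 2-fold were found. The simulations changed these 200 of 9261 to 9265 transcripts, whereas 60.0% were called in the data. Adjustment was therefore stricter in simulation, and these rates need not hold for the data. Where 1 culture had 3 or fewer summed counts, the ratio of summed counts with its 95% interval, or a bound against 3 counts, replaced the fitted fold. These intervals cover counting error only. Start-site shares were compared with exact permutation tests over libraries.

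The genes and lists were chosen with earlier results of these data known. Named were Cd44, Bmp3 and Defa6, the 15 largest called rises and falls whose libraries did not overlap and whose mean count was at least 100 in the higher culture, the called members of a list with the largest changes, up to 4, defining cell type markers, targets of both agents, and the 5 most abundant transcripts of each culture. Not all of these are reported here. Alternatives were DESeq2 1.42.0, other scalings and filters, limma 3.58.1 on log2(TPM + 1), log2(TPM + 5) and log2 copies, 8 libraries only, a replicate block, leaving out each library, and other region settings.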

Additional observations from a re-analysis of the deposited data

Results flagged for a closer look

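Groups of 4 libraries were examined for the named genes and for the ATAC start-site shares. Among these 296 groups, 18, all of named genes, held a library whose gap to the nearest other exceeded Dixon's critical share of the range at 95%. Chance gives about 1 in 20 such groups. In 6 of them 1 library held a single count and the others none, namely Fn1 (0.0302 TPM), Hspb1 (0.245 TPM), Ldhb (0.156 TPM), Lef1 (0.109 TPM) and Tdrp (0.201 TPM) in ENR and Ptprc (0.0414 TPM) in CV.

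In CV, 1 library stood above the others for Bmp3 (1.55 TPM, others 0.962 to 1.02), Olfm4 (13.3 TPM, others 4.56 to 5.71), Cubn (0.840 TPM, others 0.412 to 0.426), Fcgbp (130.2 TPM, others 110.3 to 111), H2-Ab1 (41.1 TPM, others 36.0 to 36.8), Hist1h4i (15900.2 TPM, others 13809.6 to 13838.5) and Smoc2 (195 TPM, others 174 to 177). In ENR, 1 library stood above the others for Anpep (42.3 TPM, others 35.0 to 35.3), Ccnd2 (59.4 TPM, others 52.9 to 53.9) and Ghrl (52.1 TPM, others 38.0 to 38.5), and below them for Gsk3a (23.5 TPM, others 25 to 25.3) and Ncapd3 (17.9 TPM, others 19.4 to 19.6). For Bmp3, Olfm4 and H2-Ab1 these gaps were small beside the difference between the cultures, whereas for Cubn the gap was as large as most of that difference.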

How the results depend on the processing

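The counts of called transcripts moved by more than 1.5 times under 4 alternatives. Library sizes set by spike-ins gave 1039 transcripts higher and 1597 lower in CV (39.4% higher, against 50.4% in the reported fit). On log2(TPM + 1), 331 were at least 2-fold lower and 66.2% of calls were higher, and on log2(TPM + 5), 400 were at least 2-fold higher and 184 lower. On mRNA copies, whose sums varied from 498750 to 1577575 between ENR libraries, 1409 were higher and 461 lower (75.3% higher), with 283 at least 2-fold lower. The median of all transcripts lay at 0.13 on log2(TPM + 1), -0.10 with spike-ins and 0.20 on copies. Leaving out 1 library gave 2641 to 2697 higher and 2546 to 2646 lower. Replicate numbers did not pair the libraries (correlations of same-numbered deviations -0.028, -0.022, 0.071 and -0.00082), and with the replicate block 2766 were higher and 2691 lower, 615 and 565 of them at least 2-fold.

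Of 627 list medians recomputed relative to all transcripts, 56 moved by more than the spread between libraries. Medians near 0 changed sign, those of stem cell genes (0.012 in the reported fit, -0.093 with a mean count of at least 50, -0.043 without CV replicate 4, -0.0068 without ENR replicate 3), histone deacetylases (-0.0018, 0.068 on copies, up to 0.062 without ENR replicate 2) and antigen presentation genes (-0.051 on log2(TPM + 5)). On log2(TPM + 1) they were -1.05 for goblet, -1.29 for enteroendocrine, -1.27 for tuft, 0.38 for neuronal and 0.67 for integrin, laminin and collagen genes. On log2(TPM + 5) they were -1.21 for Paneth, -0.63 for goblet, -0.86 for enteroendocrine, -0.55 for tuft, -0.19 for transcription factor, -0.50 for replication, -0.53 for mitosis, -0.30 for acetyltransferase, -0.10 for Polycomb, 0.10 for neuronal, 0.40 for integrin, -0.76 for gluconeogenesis, 0.32 for fatty acid oxidation, -0.10 for BMP and -0.14 for P450 genes. On copies they were -0.11 for stem cell, -1.56 for Paneth, -0.97 for goblet, -1.26 for enteroendocrine, -0.96 for tuft, -0.35 for acetyltransferase, -0.083 for Polycomb, 0.14 for neuronal, 0.47 for glycolysis, 0.18 for cholesterol, 0.12 for redox, 0.20 for chaperone, -0.066 for BMP, -0.51 for linker and variant histone and -0.70 for ribosomal genes. With a mean count of at least 50 they were -2.84 for enteroendocrine, -1.54 for tuft, 2.27 for neuronal, 0.65 for glycolysis and -0.27 for BMP genes, and with no filter -1.19 for goblet and 0.53 for glycolysis genes. Leaving out each library gave -2.79 to -2.03 for enteroendocrine, -3.37 to -2.70 for tuft, -0.37 to -0.27 for transcription factor, -0.18 to -0.10 for Polycomb, 1.01 to 1.53 for neuronal, -1.09 to -0.82 for gluconeogenesis, 0.35 to 0.39 for fatty acid oxidation, -0.20 to -0.10 for BMP and -0.38 to -0.27 for P450 genes.

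Of 2748 values of named genes, 2660 kept their direction and side of the threshold, 72 lost the call, 7 gained it and 9 changed sign. Those that changed sign were Axin2 on copies (0.013), Alpi on log2(TPM + 1) and log2(TPM + 5) (0.017 and 0.016), Hdac8 on these and on copies (0.075, 0.058 and 0.22) and Gsk3a likewise (0.041, 0.036 and 0.14). The H3K27me3 difference at genes lower in CV was -0.0060 as a percent of all regions. The cause of these changes was not tested. The table holds transcripts with a quantified protein only. In simulation 34.0% of 1.25-fold changes were found, but a far smaller share of transcripts was changed there than was called here. The share of small changes missed in the data is thus not known.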
